A study of Mus musculus with 8 samples.

Results

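Foxk1 is a forkhead transcription factor, and its deposited ChIP-seq peaks in and around Fn1, the gene for fibronectin, are described here. The region runs from 71.60 to 72.05 Mb on mouse chromosome 1 (mm9) and holds Fn1, taken as 71.63 to 71.70 Mb on the minus strand, and 350 kb upstream of its start. A peak belonged to the region if its summit lay between these limits, and 32 of the 28933 peaks of the list did. The region was chosen on the deposited peaks themselves, for the gene and for the dense peaks upstream of it. Number, position and signal value of its peaks are therefore descriptions, and no test was made on them.

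Chromatin came from fibroblasts grown out of mouse embryos (MEFs), cells of connective tissue that were kept in DMEM without treatment. A Foxk1 antibody was used for 3 libraries, IgG for 3 and no antibody for the 2 libraries of input chromatin. The labels used here give no genotype, strain or embryo age, and nothing says whether the libraries of a group came from separate cultures. The track line of the 1 deposited list gives mm9 and a comparison of Foxk1 with input. The list has 1 signal value and 1 q-value per peak, both the authors', and no value per library, so depth is unknown and no replicate error can be given. IgG values were not analysed here, and enrichment that any antibody would give cannot be told apart from enrichment by Foxk1 itself.

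Fibronectin is a large glycoprotein that fibroblasts secrete as a dimer and assemble into fibrils of the extracellular matrix, where cells hold on to it through integrins. Forkhead factors bind DNA through a winged-helix domain, at promoters and also at sites far from any gene start. Foxk1 is best known for repressing autophagy genes and for promoting glycolysis. In the RefSeq gene table of another assembly (GRCm38.p6), used here for gene order alone, Fn1 lies next to Atic, an enzyme gene of purine synthesis, on its downstream side. The next protein-coding gene on the upstream side is Mreg, which encodes melanoregulin. Between Fn1 and Mreg that table lists 15 entries, of which 9 are long noncoding RNAs, 5 are pseudogenes and 1 is another RNA. Which of them lie beside a given peak was not determined, because their positions are on a different assembly.

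The strong peaks of the region lay far upstream of Fn1, and those at the gene were weak or moderate. Within Fn1 and up to 5 kb beyond its start lay 6 peaks with signal values between 11.4 and 35.7, whereas the other 26 peaks, all farther upstream, reached 115. The 9 peaks that reached a signal value of 50 all lay upstream, the nearest of them 99.0 kb from the Fn1 start and the farthest 349 kb. Such values belonged to 7.97% of the whole list, so 6 peaks are too few to tell whether they are lacking at the gene. The strongest peak of the region was 267 kb upstream of the start, a distance of 3.81 times the length of the gene. These distances place peaks along the chromosome, and whether any of the peaks acts on Fn1 was not tested.

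**Figure D1:**
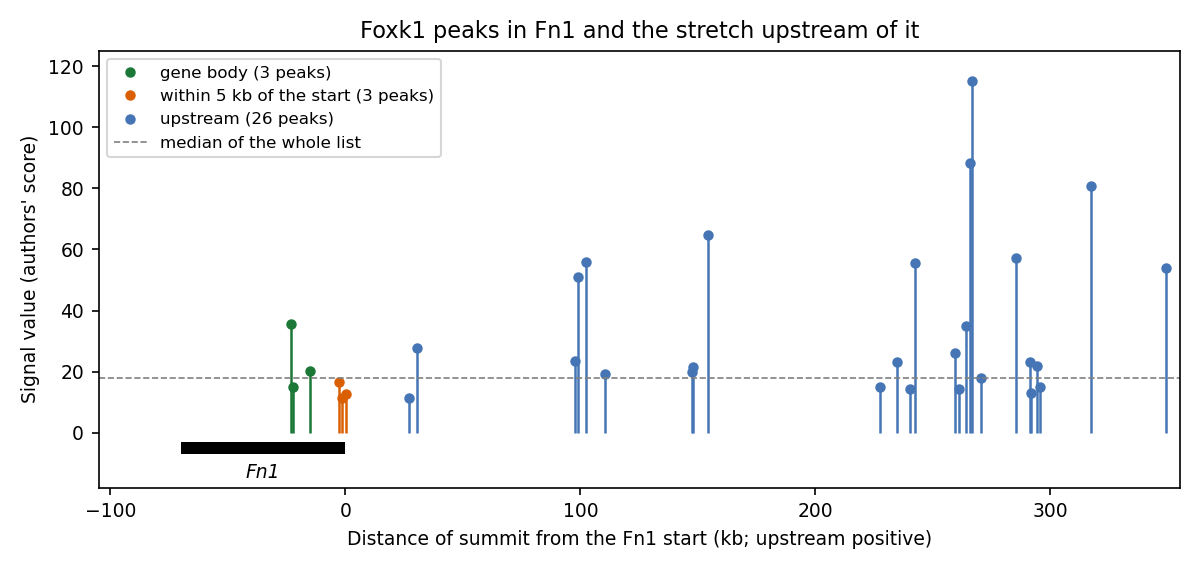
Signal value of each of the 32 peaks (vertical axis, the authors' score) against the distance of its summit from the Fn1 start (horizontal axis, kb, upstream positive), with the gene as a black bar. The 6 peaks in the gene or within 5 kb of its start stay below 36, and all values of 50 or more stand upstream.

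Inside the gene, peaks were confined in this list to the 5′ part. The first summit from the 3′ end lay 47.0 kb into the gene, and the 30 kb of the region below the gene held none. Of 3 peaks in the gene body, chr1:71676762-71677221 had a signal value of 35.7 and q = 0.000546, and its summit was 23.0 kb inside the start. A neighbour with a summit 843 bp away, chr1:71677605-71678064, had a signal value of 15.0, and chr1:71684538-71684997, 15.2 kb inside the start, had 20.2. The first of these was the 10th strongest of the region and ranked 4576 in the whole list. Exon and intron positions on mm9 were not used here, so none of these peaks is assigned to an exon or intron.

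At the start of Fn1 itself 3 weak peaks stood in a row. The peak chr1:71699861-71700320 covered the position of 71.70 Mb taken as the start, with a signal value of 12.5 and q = 0.00437. On its gene side came chr1:71698287-71698746, with a signal value of 11.4, and chr1:71697196-71697655, with 16.7. All 3 lay below the list's median of 17.8, and the lowest of them is the weakest peak of the region, just above the 11.3 at which the list ends. The start is known here only to the nearest 10 kb, so which of the 3 peaks lie before it and which behind it cannot be told.

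The first 200 kb upstream, beyond 5 kb from the start, held 9 peaks in 3 groups, a group being a run of summits each less than 10 kb from the next. Nearest to the gene, 27.2 and 30.6 kb upstream, stood a weak peak of 11.5 and one of 27.7. A stretch of 67.1 kb without a peak followed. Then came 4 peaks between 97.6 and 110 kb upstream, of which chr1:71798787-71799246 had a signal value of 50.8 and chr1:71802139-71802598 had 55.9. The outer members of this group were weaker, with 23.6 and 19.3. The last group of the 3 had 2 neighbours 618 bp apart with signal values of 19.97 and 21.7, the closest summits of the region, and then chr1:71854078-71854537 with 64.7, which was 154 kb upstream and the 4th strongest peak.

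After a further 73.0 kb without a peak, the remaining 17 peaks lay between 227 and 349 kb upstream. The first 4 of them ended in chr1:71942300-71942759, with a signal value of 55.5, after values of 15.1, 23.2 and 14.2. The next group was the largest and the strongest of the region, with 6 peaks over 11.3 kb. In the whole list 179 groups had at least 6 peaks, and the largest had 16. At the centre of the region's group, chr1:71965586-71966045 with a signal value of 88.4 and chr1:71966422-71966881 with 115 had summits 836 bp apart. Their 4 companions had 26.2, 14.4 and 35.1 on the side of the gene and 18.0 on the far side. The peak of 115 ranked 292 in the whole list and 10 on chromosome 1, and that of 88.4 ranked 625 in the list. The peak of 35.1 ranked 4727 in the list, and the lowest of the group, 14.4, ranked 19599.

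The 5 peaks that followed, from 285 to 295 kb upstream, were led by chr1:71985093-71985552 with a signal value of 57.2. The other members had 23.0, 12.9, 21.7 and 14.9. The last pair of peaks stood alone in their 10 kb. These were chr1:72017163-72017622, 317 kb upstream with a signal value of 80.8, the third strongest of the region, and chr1:72048994-72049453, 349 kb upstream with 54.0. Both of these peaks reached 50, and of the 8 groups with at least 2 peaks, 5 held a peak of 50 or more. In the whole list 7.97% of all peaks reached 50. The share was not counted there for lone peaks or for groups. Whether strength goes with standing alone or in a group therefore cannot be told from these counts.

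**Figure D2:**
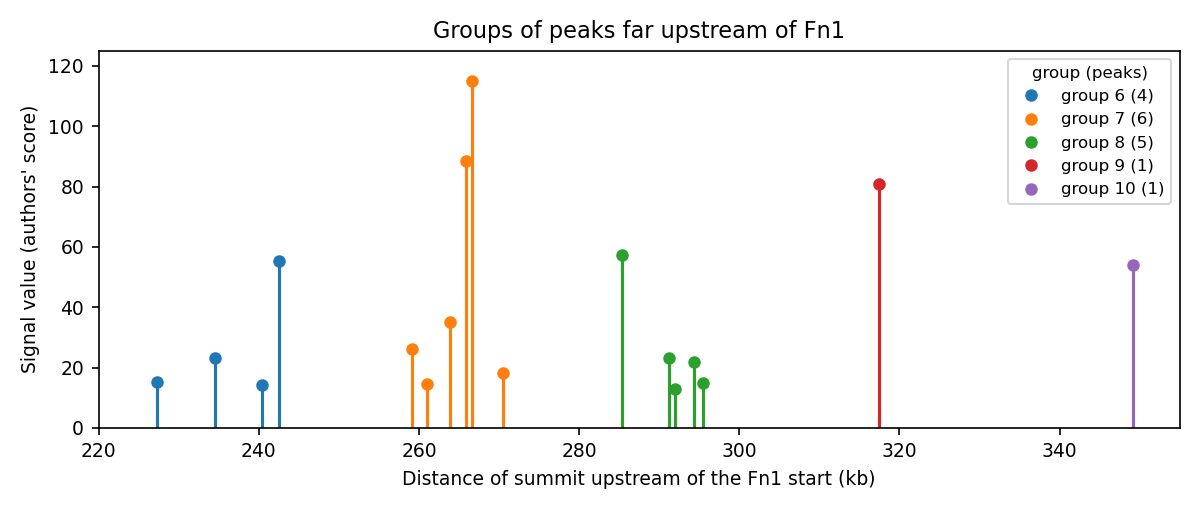
Signal value (vertical axis, the authors' score) of the 17 peaks more than 200 kb upstream, against distance of the summit from the Fn1 start (horizontal axis, kb), coloured by group with the number of peaks in brackets. Groups are numbered along the chromosome, and the group of 6 holds the pair of 88.4 and 115.

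No peak of the region lay between 35.7 and 50.8, and all 9 above this gap shared the lowest q-value of the list, 0.00014. The peaks on either side of the gap ranked 4576 and 2244 among the 28933 of the list. The gap was seen in only 32 values, and whether it separates kinds of peaks was not tested. Signal values of 50 or more belonged to 9 of 32 peaks (28.1%) in the region, to 7.97% of the whole list and to 135 of 1881 peaks (7.18%) on the rest of chromosome 1. The lowest q-value was held by 28.1% of the region's peaks and 12.3% of the list, and a q-value of at most 0.001 by 22 peaks (68.8%) and 51.3% of the list. Values of 100 or more belonged to 1 peak (3.13%) in the region and to 1.47% of the list. The median signal value was 22.4 in the region (25th and 75th percentiles 15.0 and 51.6) and 17.6 on the rest of chromosome 1 (13.4 and 26.6). The 75th percentiles thus lay farther apart than the medians or the 25th percentiles.

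Within the region the medians were 20.2 for the 3 peaks of the gene body, 12.5 for the 3 within 5 kb of the start, 23.6 for the 9 from there to 200 kb upstream and 23.2 for the 17 beyond. A signal value of 50 was reached by 3 of the 9 and by 6 of the 17.

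**Figure D3:**
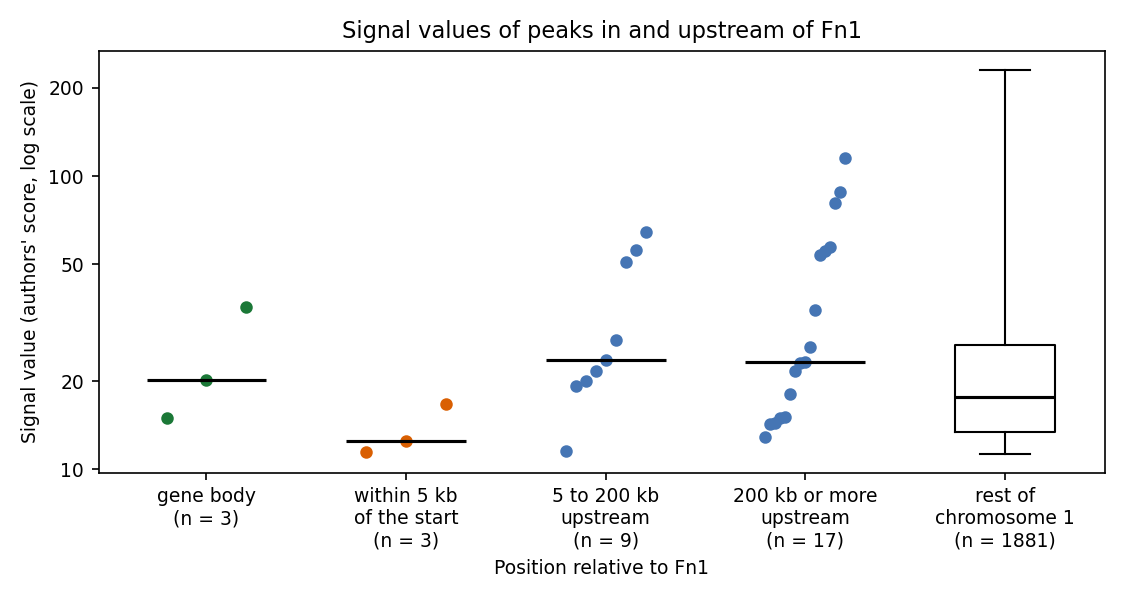
Signal value on a log axis (the authors' score) for each peak of the region by position relative to Fn1, with the median as a black line, beside the rest of chromosome 1 (box from 25th to 75th percentile, line at the median, whiskers to the lowest and highest value). The 3 peaks at the start lie at or below 16.7, and values of 50 or more occur in both upstream classes.

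The region carried 71.1 peaks per Mb, against 9.57 on the rest of chromosome 1, with the highest peak end of 197 Mb as the length of the chromosome. It thus held 1.67% of the peaks of chromosome 1 in 0.228% of that length. For peaks of at least 50 the share was larger, 9 of 144 or 6.25%. The density of the region divided by that of chromosome 1 was 7.32 for all peaks and 27.4 for those of at least 50. This limit was set with the values in view.

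The median distance between neighbouring summits was 3.78 kb in the region and 29.9 kb on the rest of chromosome 1. Another summit lay within 5 kb of 24 of the 32 peaks (75%), where this held for 39.6% of the whole list. None of the neighbours overlapped. In the whole list of 28933 peaks 760 neighbouring pairs did, so overlap was uncommon there too. The peaks are all 460 bp wide, and the closest pair of the region left a free interval between them.

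Set beside windows of the same 450 kb laid end to end over chromosomes 1 to 19 and X, the region with its 32 peaks was among the fullest. The median window held 3 peaks, and 6 of 5844 windows (0.103%) held 32 or more, with 43 at most. None of these 6 was on chromosome 1, and no grid window has the limits of the region. The fullest grid window over the region held 30, and another window of chromosome 1, from 163800001 to 164250000, also held 30. Starting the windows 225 kb later gave 12 of 5838. The limits of the region were set with its peaks in view, which a fixed grid does not allow for. Windows were therefore also placed freely, 1 starting at each summit. The fullest of those that start in the region held 36 peaks, some of them past its upper limit, and the fullest elsewhere held 51. The count within the region's own limits, 32, was reached by 26 other separate stretches of the genome. How many of them reached 36 was not counted.

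For peaks of 50 or more, fewer stretches reached the count of the region. This limit was set with the values in view and the count is the region's own, so the comparison is a description. Freely placed windows that held at least 9 peaks of 50 or more were found in the region and in 1 other stretch, on chromosome 5 from a summit at 107477650, which held 10. On the fixed grid the window from 71550001 to 72000000, which covers most of the region, held 7 such peaks, and the next fullest windows, on chromosomes 5, 11 and 19, held 6 each. The 6 grid windows with 32 or more peaks of any strength, on chromosomes 3, 5, 6, 11 and 19, held between 2 and 6 peaks of at least 50. The median signal value of 22.4 in the region lay inside the range of those windows, 15.7 to 26.2.

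**Figure D4:**
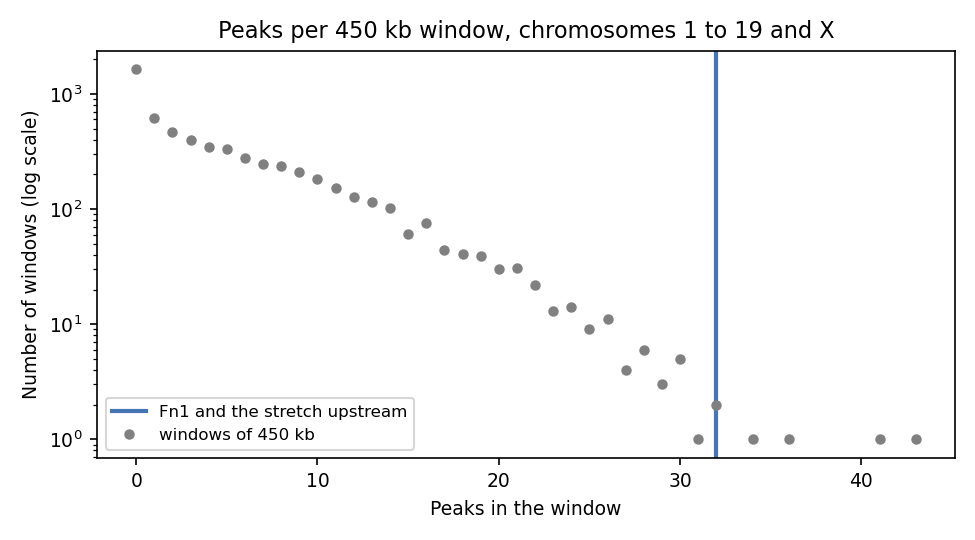
Number of 450 kb windows (vertical axis, log scale) by the number of peaks they hold (horizontal axis), over chromosomes 1 to 19 and X, with the region as a vertical line at 32 peaks. The grid windows thin out above 30 peaks and end at 43.

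The peaks were not evenly spread over the upstream stretch. The 100 kb from 71900001 to 72000000, which lie 200 to 300 kb upstream, held 15 peaks with a median signal value of 23.0, and 4 of them reached 50. Each of the 3 preceding windows of 100 kb held 5, but the first of these covers the gene and not the upstream stretch. The window after the fullest, which runs past the upper limit, held 3. In this grid 8 of 26340 windows of 100 kb (0.0304%), this one among them, held 15 or more. On chromosome 1 it was the fullest, ahead of one with 13. The limit of 15 is the window's own count, in a region chosen for its dense peaks, so this share is a description. Starting the windows 50 kb later gave 12 of 26333 windows with 15 or more, and 22 peaks at most. The fullest window of this grid, on chromosome 19 from 5800001 to 5900000, held 20 peaks with a median signal value of 21.5, and 5 of them reached 50.

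The limits fell differently at the 2 ends. Below the region the nearest peak, chr1:71525150-71525609 with a signal value of 17.4, stood 151.6 kb from the first summit inside. At the upper end the last summit inside was 0.777 kb from the limit, with a signal value of 54.0. The next peak beyond, chr1:72060438-72060897, followed after 11.4 kb with 14.1. Beyond it came 3 peaks of 24.6, 30.0 and 28.3 between 417 and 426 kb upstream. These peaks past the upper limit thus all stayed below 50, and on the side of the gene the run of peaks ended inside Fn1.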

How the data were processed

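Alignment used Bowtie and the mm9 genome, per the submitters' processing notes. Not given in the sources used here are its version, the peak caller with its settings, and any pooling of libraries. For each peak the authors deposited a signal value, a score whose scale is not stated, and a q-value on a linear scale. They also deposited another field, the summit offset. Groups came from the antibody label and, for input, the titles.

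Peaks were ranked by signal value and assigned by summit. Positions are 1-based. Limits of the region and of Fn1 were round values to the nearest 10 kb, no mm9 annotation was used, and the region, members and measures were chosen with earlier results of these data known. Peaks described in full were set by a rule: the 10 strongest, those nearest the start and those at the limits. The remaining peaks in the gene and at its start were given in full as well. All others are given by value. Alternatives covered signal and q limits, merging, limits of the region and the start position. Functions were tested on simulated data with planted peaks. Sequence features planned for the Fn1 promoter are not reported here. Python 3.11.15, numpy 2.4.6, pandas 2.3.3, scipy 1.17.1 and matplotlib 3.10.9 were used.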

Additional observations from a re-analysis of the deposited data

How the results depend on the processing

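The number of peaks in the region was 32 and lay between 22 and 38 over the alternatives tried. The density relative to chromosome 1 was 7.32 and lay between 5.81 (summits closer than 2000 bp merged) and 10.2 (peaks at or above the list's median signal value) when the list, the merging, the limits or the comparison were changed. Among peaks that reached 50, a limit added after seeing the data, it was 27.4. The median signal value was 22.4, and it was 31.4 among peaks with a q-value of at most 0.001. In the region this q limit kept the peaks of 18.0 or more and dropped those of 16.7 or less, so the filter itself raises the median. The share of peaks with another summit within 5 kb was 75%, and it was 56.3% within 2 kb and 93.8% within 10 kb, as the distance itself sets. In the whole list these shares were 39.6% within 5 kb, 25.8% within 2 kb and 52.3% within 10 kb. The number of peaks upstream of the start, with the start at 71.70 Mb, was 27. It lay between 26 and 29 when the start was moved by 5 kb either way, and was 20 among peaks with a q-value of at most 0.001. No paired analysis was possible because the list holds no value per library, and for the same reason no replicate could be left out. Depth is unknown, so a stretch without a peak had none detected at the threshold of the list and may still bind Foxk1.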
